A study of Mus musculus with 4 samples.

Results

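The angiotensin, endothelin and bradykinin systems are described here by 10 genes: the precursors Agt and Edn1, the processing enzymes Ace and Ece1, and the receptors Agtr1a, Agtr2, Ednra, Ednrb, Bdkrb1 and Bdkrb2. The members were taken by gene symbol from a fixed list, and all 10 were found among the 33641 genes listed for each library. RNA was measured in 4 libraries of primary cardiac fibroblasts from wild-type C57BL/6J mice aged 12 weeks, 2 with vehicle and 2 with TGFbeta at 10 ng/ml, which drives fibroblasts towards the myofibroblast state. All 4 cultures, controls included, also received the uridine analogue 4-SU at 20 and at 4 h before they were crosslinked with light of 368 nm. The series text describes RNA eluted with the RNA-binding protein HuR (gene Elavl1), whereas the sample labels describe total RNA. The levels below may therefore be levels in the cell or levels bound to HuR, the sources used here do not settle which, and no input library was analysed here.

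These peptide systems constrict or relax vessels and act on fibroblasts as local signals. Angiotensinogen (Agt) is cut by renin and then by the enzyme encoded by Ace to angiotensin II, which acts mainly through the type 1 receptor, encoded in mice by Agtr1a and Agtr1b. Endothelin-1 (Edn1) is released from a larger precursor by furin and by the enzyme encoded by Ece1, and binds the A and B receptors, Ednra and Ednrb. Bradykinin is cut from kininogens, is broken down by the same enzyme that makes angiotensin II, and binds a constitutive receptor (Bdkrb2) and an inflammation-induced receptor (Bdkrb1). In heart fibroblasts, angiotensin II and endothelin-1 are known to raise collagen production.

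HuR binds AU-rich and U-rich stretches, often in the 3′ untranslated region (UTR), so these regions of the members were searched on the transcript strand for ATTTA and for TATTTAT, which contains it. A 3′ UTR was found for all 10 members in GENCODE M21 (GRCm38), in the longest coding transcript of each gene. At least 1 ATTTA was present in 7 of the 10, against 68.9% of 13549 tested genes with a 3′ UTR. TATTTAT was present in 4 of the 10, against 30.1% of those genes. Counted among the 10, Ednrb, Bdkrb2 and Agtr2 were not among the tested genes, and each held ATTTA. Agt and the receptors other than Agtr1a held no TATTTAT. The 4 sites, in Edn1, Agtr1a, Ace and Ece1, are shown as a description only. Each runs 5′ to 3′ in the letters of DNA (T for U), with TATTTAT in capitals.
Edn1: ttttttatagaTATTTATattcaaacaat
Agtr1a: agttagtggtgTATTTATgtagcagtgta
Ace: ttttatctacaTATTTATgtagtaaattt
Ece1: aaagattagtaTATTTATtatgttctctt

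The ATTTA within these sites lies at chr13:42307817-42307821 in Edn1, chr13:30382605-30382609 in Agtr1a, chr11:105989886-105989890 in Ace and chr4:137963380-137963384 in Ece1, all on the plus strand. Edn1 held 3 ATTTA in a 3′ UTR of 1111 bases, starting close together at positions 938, 953 and 966 of it. As many were found in 30.7% of 1894 tested genes whose 3′ UTR was within 20% of that length, and 26.1% of those held TATTTAT. Agtr1a held 2 ATTTA in 834 bases, a number reached by 39.2% of genes of like length, of which 20.3% held TATTTAT. Ace held 1 in 930 bases; 69.2% of genes of like length held as many, and 21.6% held TATTTAT. Ece1 held 3 in 2323 bases; 65.2% of genes of like length held as many, and 42.4% held TATTTAT. None was found in the 3′ UTRs of Agt (396 bases), Bdkrb1 (247 bases) and Ednra (1945 bases). Of tested genes with a 3′ UTR of a length like that of Ednra, 89.6% held at least 1 ATTTA. A match is a stretch of letters only, and binding at single sites was not analysed here.

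The comparison asked whether transcripts of these systems differ in level between TGFbeta and vehicle. Levels are TPM, transcripts per 1000000, which are scaled for transcript length, so that genes can be compared within a library. Changes are TGFbeta minus vehicle means of log2(TPM + 1), tested with limma over the 15815 genes with a mean of at least 1 TPM, with Benjamini-Hochberg adjustment over all of them. A gene was called at an adjusted p under 0.05, which 5.92% of tested genes reached in either direction and 4.38% as lower. Of the members, 7 were tested with limma and 0 were called, while Ednrb, Bdkrb2 and Agtr2 lay under 1 TPM on average and were not tested. At an unadjusted p under 0.05, 4 of the 7 were lower and 0 higher, and 18.5% of all tested genes were lower by that measure. The 4 were Agtr1a, Ece1, Ace and Agt, and in each both TGFbeta libraries lay below both vehicle libraries. Of all tested genes, 39.8% were separated in that direction, so such separation is common in these libraries. The median change of the 7 tested members was -0.56, beside -0.13 for all tested genes.

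The libraries carried the fibroblast identity of their label, with 10 fibroblast markers, led by Col3a1, summing to between 19749 and 23698 TPM. Of these, Pdgfra and Tcf21 fell by 1.42 and 1.11 on the log2 scale (limma adjusted p = 0.0106 and 0.0148) and 8 did not pass. No listed marker of another cell type was at 0 in all 4 libraries. Endothelial cells are a known source of Edn1, Ece1, Ace and Ednrb. The 10 endothelial markers summed to 91.9 and 90.8 TPM in vehicle and to 80.9 and 76.0 TPM in TGFbeta, and of the 9 tested 1 (Erg) rose and 0 fell by limma, with 2 lower at an unadjusted p under 0.05. The leading endothelial marker, Egfl7, had 34.0 and 34.3 TPM in vehicle and 22.5 and 16.95 TPM in TGFbeta (limma adjusted p = 0.0599), and Pecam1, singled out after its values were seen, had 5.97, 7.35, 5.93 and 6.07 TPM in the same order. Sums were also lower in both TGFbeta libraries for 10 cardiomyocyte markers (70.5 and 107 TPM in vehicle, 48.8 and 52.4 TPM in TGFbeta). Most of that sum was Tnnt2, with 47.0 and 81.4 TPM in vehicle and 35.2 and 34.6 TPM in TGFbeta. Of the 10, 4 were under 1 TPM in all libraries. The sums of 10 macrophage and leukocyte markers, led by Lyz2, were lower too (80.1 and 99.8 TPM, then 66.3 and 71.8 TPM). In both lists limma called 0 of the tested ones, with 2 of each lower at an unadjusted p under 0.05. The 8 mesothelial markers were led by Upk3b, and 5 of them were under 1 TPM in all libraries. They summed to 14.6 and 17.3 TPM in vehicle and 12.1 and 12.7 TPM in TGFbeta. Of the 3 tested limma called 0, with 1 lower at an unadjusted p under 0.05. The sums of the 10 pericyte and smooth muscle markers, led by Pdgfrb, overlapped, at 432 and 455 TPM in vehicle and 441 and 416 TPM in TGFbeta, but single markers moved apart. Of the 8 tested, Mcam rose from 14.4 to 29.4 TPM (0.98, limma adjusted p = 0.0242), Notch3 fell from 79.0 to 19.2 TPM (-1.99, limma adjusted p = 0.00633), and 6 did not pass. The part of other cells in the lower levels of Agtr1a, Ece1, Ace and Agt was not tested. In bulk libraries, fewer cells of a type and less RNA per cell cannot be told apart. Of the study's own genes, Elavl1 had 48.4 ± 3.87 TPM in vehicle and 52.9 ± 2.52 TPM in TGFbeta (SD, n = 2 each; limma adjusted p = 0.621), and Wisp1, Postn and Acta2 rose by 2.59, 2.52 and 1.03 on the log2 scale.

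By mean TPM over the 4 libraries, Ece1 (88.7) came first, followed by Edn1 (19.4), Agtr1a (10.4), Ace (8.63), Agt (2.53), Bdkrb1 (1.29), Ednra (1.27), Ednrb (0.610), Bdkrb2 (0.128) and Agtr2 (0.0210). Neighbours in that order whose ranges over the 4 libraries overlapped were Edn1 and Agtr1a, Agtr1a and Ace, Agt and Bdkrb1, Bdkrb1 and Ednra, and Bdkrb2 and Agtr2. Within every library, however, Edn1 was above Agtr1a, Agt above Bdkrb1 and Bdkrb2 above Agtr2. The order of Agtr1a and Ace, and that of Bdkrb1 and Ednra, was reversed in TGFbeta 1 and is not separated from the spread. Ece1 alone supplied 60.1% to 71.7% of the summed TPM of the 10 genes in each library.

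**Figure D1:**
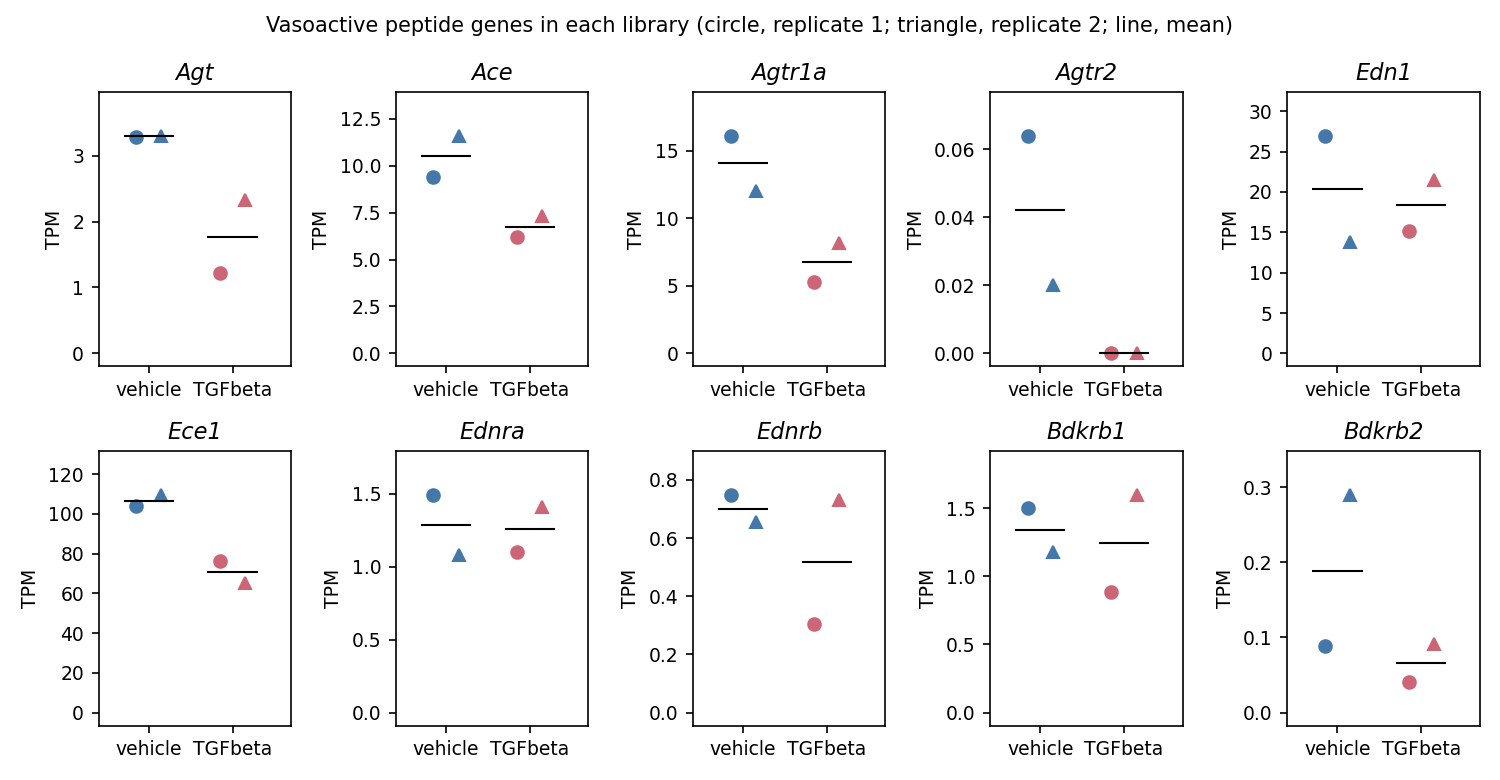
TPM of each member (vertical axis, from 0, scaled per gene) in the vehicle and TGFbeta libraries (circles, replicate 1; triangles, replicate 2; lines, means of 2 libraries). Agt, Ace, Agtr1a and Ece1 have both TGFbeta points below both vehicle points, Agtr2 is listed at 0 in both TGFbeta libraries, and the points of Edn1, Ednra, Ednrb, Bdkrb1 and Bdkrb2 overlap.

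Among the precursors, Agt had 3.28 and 3.30 TPM in vehicle libraries 1 and 2, and 1.22 and 2.32 TPM in TGFbeta libraries 1 and 2. The vehicle libraries were nearly equal, whereas the TGFbeta libraries were both lower and differed from each other by 1.90-fold. Mean Agt was 3.29 ± 0.0139 TPM for vehicle against 1.77 ± 0.775 TPM for TGFbeta (SD, n = 2 each). The difference of -0.66 (SE 0.26) on the log2 scale did not pass (limma adjusted p = 0.190). Agt lies on chromosome 8 (124556534 to 124569706, minus strand, ENSMUSG00000031980.9).

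Edn1, the ligand gene of the endothelin system, had 27.0 and 13.8 TPM in vehicle and 15.2 and 21.5 TPM in TGFbeta. The vehicle libraries were the highest and the lowest of the 4, and both TGFbeta libraries lay between them. The difference on the log2 scale was -0.092 (SE 0.33, limma adjusted p = 0.895), with a 95% interval from -0.89 to 0.71 that includes changes of either sign. It was 0.37 without vehicle 1 and 0.15 without TGFbeta 1, and -0.55 without vehicle 2 and -0.33 without TGFbeta 2. Edn1 lies on chromosome 13 (42301476 to 42307990, plus strand, ENSMUSG00000021367.8).

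Of the enzymes, Ece1 had 103.7 and 109.6 TPM in vehicle and 76.5 and 65.0 TPM in TGFbeta. Its vehicle libraries were close together and clear of both TGFbeta libraries. Mean Ece1 was 107 ± 4.14 TPM for vehicle against 70.7 ± 8.13 TPM for TGFbeta (SD, n = 2 each), 33.7% less. The difference of -0.59 (SE 0.14; 95% interval -0.94 to -0.24) on the log2 scale missed the threshold (limma adjusted p = 0.0670). Ece1 (chromosome 4, 137862237 to 137965229, plus strand, ENSMUSG00000057530.14) stood at or above 87.1% of all tested genes in mean TPM.

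Ace, whose enzyme both forms angiotensin II and inactivates bradykinin, had 9.39 and 11.6 TPM in vehicle and 6.19 and 7.34 TPM in TGFbeta. The groups did not overlap. Mean Ace was 10.5 ± 1.57 TPM for vehicle against 6.77 ± 0.813 TPM for TGFbeta (SD, n = 2 each), and the difference of -0.56 (SE 0.19) on the log2 scale did not pass (limma adjusted p = 0.146). Ace lies on chromosome 11 (105967945 to 105989964, plus strand, ENSMUSG00000020681.14). The level of Ece1 was 11.04 and 9.43 times that of Ace in vehicle and 12.4 and 8.85 times that of Ace in TGFbeta. These ratios overlapped between the groups.

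Agtr1a, the main type 1 angiotensin receptor gene, had the largest difference among the 7 tested members. It had 16.1 and 12.0 TPM in vehicle and 5.31 and 8.17 TPM in TGFbeta. Both TGFbeta libraries were below the lower vehicle library. Mean Agtr1a was 14.1 ± 2.91 TPM for vehicle against 6.74 ± 2.02 TPM for TGFbeta (SD, n = 2 each), a ratio of 2.09. The difference of -0.97 (SE 0.25; 95% interval -1.58 to -0.36) on the log2 scale missed the threshold (limma adjusted p = 0.0793). Agtr1a lies on chromosome 13 (30336441 to 30382867, plus strand, ENSMUSG00000049115.15).

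Agtr2, the gene of the type 2 receptor that often opposes the type 1 receptor, had 0.0640 and 0.0200 TPM in vehicle and was listed at 0 in both TGFbeta libraries. No fold is given for Agtr2, since the depth is unknown. Agtr1b, singled out after its values were seen, had 0.515 and 0.440 TPM in vehicle and 0.272 and 1.63 TPM in TGFbeta. TGFbeta 2 thus stood above the other libraries for Agtr1b. Agtr1a made up 96.5% and 96.3% of the TPM of Agtr1a, Agtr1b and Agtr2 in vehicle, and 95.1% and 83.4% in TGFbeta. Agtr1a and Agtr1b are close copies, and the files do not say how reads shared between them were assigned.

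Of the endothelin receptors, Ednra (A receptor) had 1.49 and 1.08 TPM in vehicle and 1.10 and 1.41 TPM in TGFbeta. The TGFbeta libraries lay within the vehicle range. The difference was -0.018 (SE 0.24, limma adjusted p = 0.973) on the log2 scale, with a 95% interval from -0.59 to 0.56. Ednrb (B receptor) had 0.749 and 0.654 TPM in vehicle and 0.306 and 0.731 TPM in TGFbeta, so that TGFbeta 1 was low and TGFbeta 2 lay within the vehicle range. Ednra made up 66.6% and 62.3% of endothelin receptor TPM in vehicle and 78.3% and 65.8% in TGFbeta. Ednra was the larger share in all 4 libraries. Ednra lies on chromosome 8 (77663031 to 77724464, minus strand) and Ednrb on chromosome 14 (103814625 to 103844402, minus strand).

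Of the bradykinin receptors, Bdkrb1 had 1.50 and 1.18 TPM in vehicle and 0.886 and 1.60 TPM in TGFbeta. TGFbeta held both the lowest and the highest library. The difference was -0.076 (SE 0.26, limma adjusted p = 0.890) on the log2 scale, with a 95% interval from -0.71 to 0.56. Bdkrb2 had 0.0881 and 0.290 TPM in vehicle and 0.0411 and 0.0912 TPM in TGFbeta, with vehicle 2 above the other libraries. Bdkrb1, the inducible receptor gene, made up 94.4% and 80.3% of bradykinin receptor TPM in vehicle and 95.6% and 94.6% in TGFbeta. Both genes lie on the plus strand of chromosome 12, with 7847 bases between the end of Bdkrb2 (105563226 to 105595237) and the start of Bdkrb1 (105603085 to 105605428).

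**Figure D2:**
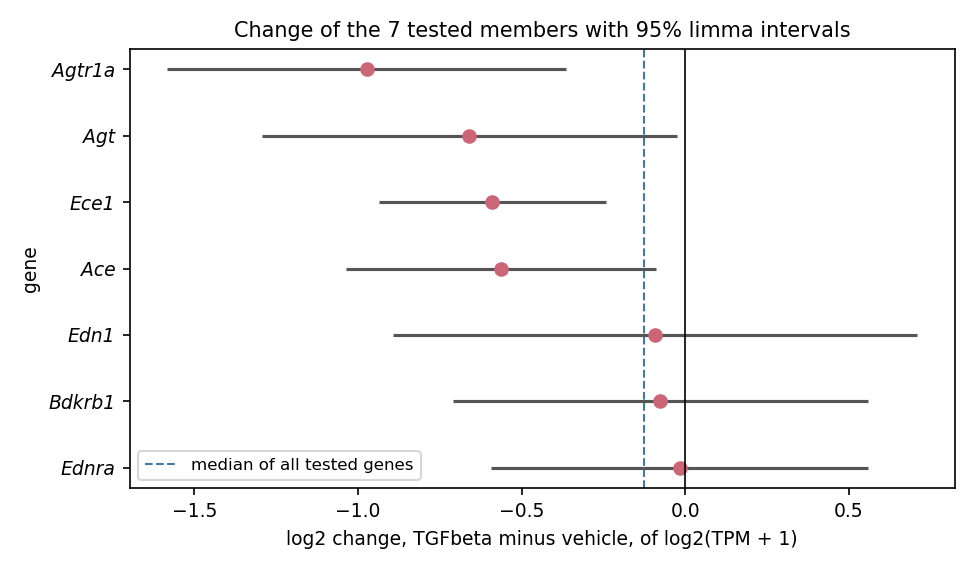
Difference of log2(TPM + 1), TGFbeta minus vehicle (horizontal axis), for the 7 tested members, with 95% limma intervals; the dashed line is the median of all tested genes, -0.13. The intervals of Agtr1a, Agt, Ece1 and Ace lie below 0 before adjustment for multiple testing, and those of Edn1, Bdkrb1 and Ednra span 0.

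Ratios within a library set the members against each other without a common scaling factor, and they were not tested. The ratio of Agtr1a to Ednra TPM was 10.8 and 11.1 in vehicle, and 4.83 and 5.80 in TGFbeta. The groups did not overlap, with Agtr1a lower in TGFbeta and Ednra in the vehicle range. Agtr1a made up 80.6% and 78.8% of the TPM of the 6 receptors in vehicle and 69.5% and 68.1% in TGFbeta. The ratio of Ece1 to its substrate gene Edn1 was 3.84 and 7.93 in vehicle and 5.04 and 3.02 in TGFbeta, which overlapped.

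Agtr1a, Edn1, Ednra, Ednrb and Bdkrb1 shared an order within groups: each was higher in vehicle 1 than in vehicle 2 and higher in TGFbeta 2 than in TGFbeta 1. The ratio between the vehicle libraries ran from 1.15 (Ednrb) to 1.95 (Edn1), and that between the TGFbeta libraries from 1.28 (Ednra) to 2.39 (Ednrb). For Edn1, Ednra and Bdkrb1 the gaps between replicates exceeded the difference between the group means. Agt, Ace, Ece1, Agtr2 and Bdkrb2 did not share that order, and its share among all tested genes was not counted.

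Likeness of pattern was measured over the 4 libraries as the Euclidean distance of log2(TPM + 1) after each gene's mean was subtracted, among 11463 tested genes with at least 5 TPM on average. The nearest genes to Agtr1a were Gm16332 (distance 0.062), the integrin gene Itga8 (0.067) and Kiz (0.080). For Ece1 they included Dmpk (0.0067) and 0610009L18Rik (0.010). For Ace they were Ndufaf3 (0.036), Amt (0.045) and AC149090.1 (0.053). For Agt they were Casp4 (0.047), Gm11439 (0.051) and the metalloprotease inhibitor gene Timp2 (0.062). With so many candidates over 4 libraries, close patterns are a description of the values only.

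The calls of Agtr1a and Ece1 depended on the setting. In the protein-coding setting, TPM were also rescaled to 1000000 per library. With protein-coding genes only, 8.52% of genes were called lower, and these included Agtr1a at -0.96 (limma adjusted p = 0.0250) and Ece1 at -0.56 (limma adjusted p = 0.0473). With a mean of at least 5 TPM, 9.02% were called lower, again including Agtr1a (limma adjusted p = 0.0399) and Ece1 (limma adjusted p = 0.0400). Over all 15 settings Agtr1a ran from -1.24 to -0.70 (limma adjusted p from 0.0250 to 0.277) and Ece1 from -0.71 to -0.44 (limma adjusted p from 0.0400 to 0.302). Ace (-0.70 to -0.40) and Agt (-0.95 to -0.30) were also below 0 in every setting that tested them and were called in 0 of them. Scaling each library by its median moved the median of all tested genes from -0.13 to 0.027. The differences were then -0.82 for Agtr1a, -0.51 for Agt, -0.44 for Ece1 and -0.41 for Ace, whereas Edn1, Ednra and Bdkrb1 turned to values above 0. Agt and Ace then had an unadjusted limma p of 0.0947 and 0.0857, and of 0.0959 and 0.0945 with quantile normalization. Agtr1a and Ece1 stayed under 0.05 by that measure in both settings.

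**Figure D3:**
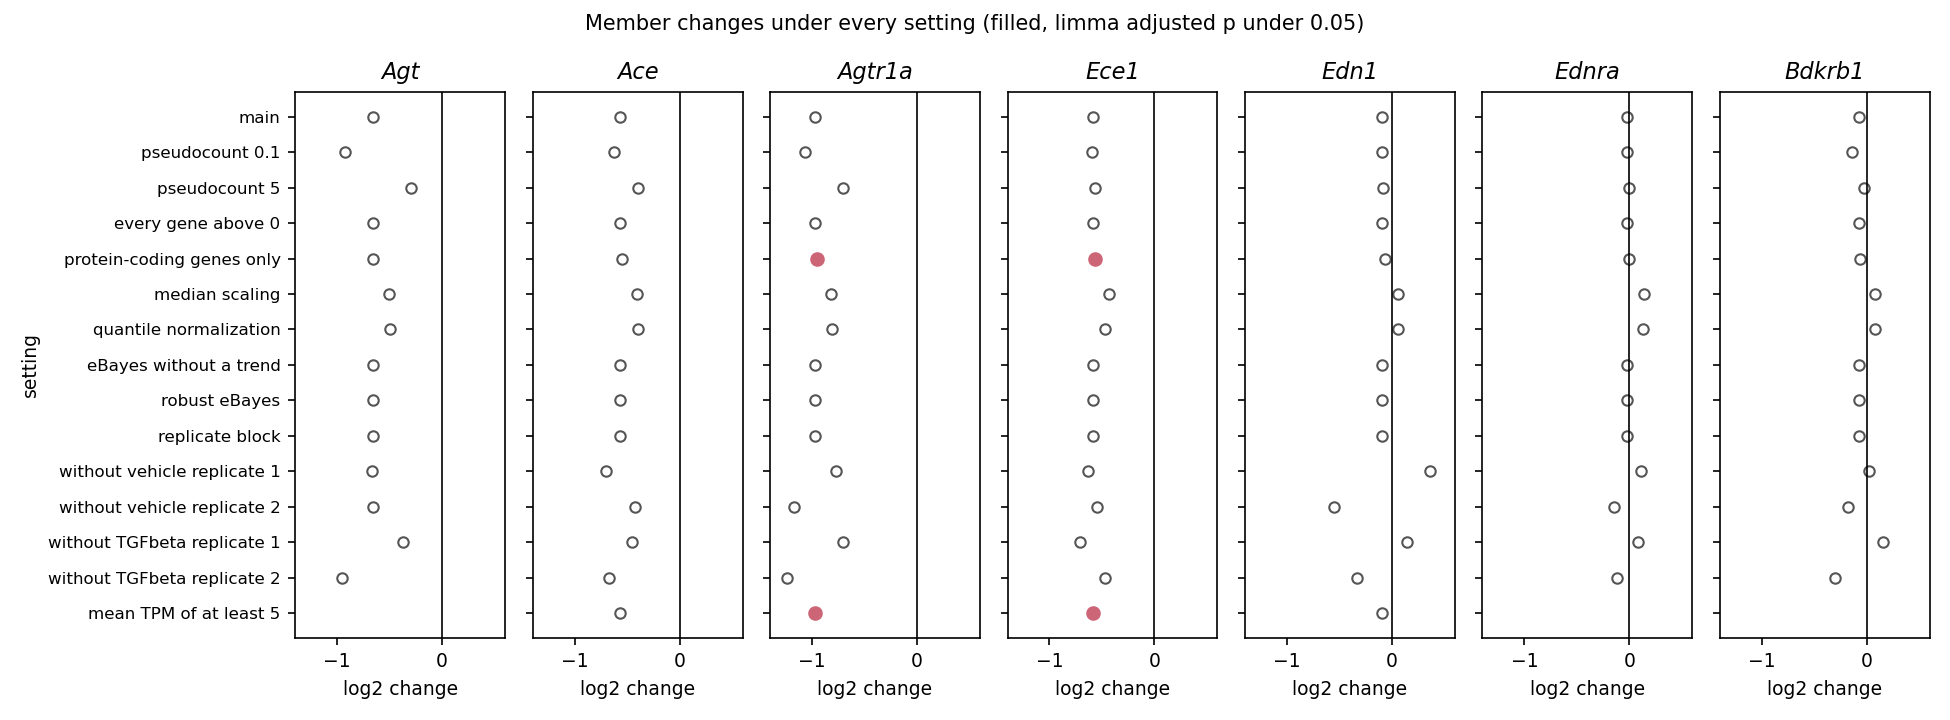
Difference of log2 values (horizontal axis, TGFbeta minus vehicle) of each tested member under the main analysis and 14 alternatives (rows); filled points had a limma adjusted p under 0.05. Filled points occur for Agtr1a and Ece1, with protein-coding genes only and with a mean of at least 5 TPM, and Edn1, Ednra and Bdkrb1 lie on both sides of 0.

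Beyond the members, 12 of 18 listed genes of the angiotensin system were tested and limma called 0, with 2 lower and 1 higher at an unadjusted p under 0.05 and a median change of -0.042. These genes include renin (Ren1), the angiotensin-(1-7) receptor gene Mas1 and peptidases that trim angiotensins. Of 7 other listed endothelin genes, 2 were tested and limma called 0, with 1 higher at an unadjusted p under 0.05. Ece2, a related converting enzyme gene, had 28.8 and 24.9 TPM in vehicle and 42.5 and 38.1 TPM in TGFbeta. The difference of 0.57 did not pass (limma adjusted p = 0.0858), but Ece2 was called after median scaling (0.72, limma adjusted p = 0.0453) and with protein-coding genes only (0.60, limma adjusted p = 0.0457). The ratio of Ece1 to Ece2 was 3.60 and 4.40 in vehicle and 1.80 and 1.71 in TGFbeta. The ratio was lower in both TGFbeta libraries. Furin, whose product makes the first cut in the endothelin precursor, differed by 0.37 (limma adjusted p = 0.265). Edn2, singled out after its values were seen, was listed at 0 in all 4 libraries, and Edn3 in all but TGFbeta 1, so Edn1 was the endothelin ligand gene with a measured level in each library.

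Of the other kinin genes, 7 of 12 were tested, of which 1 fell, 0 rose and 6 did not pass. Serping1, which encodes the C1 inhibitor that restrains plasma kallikrein, fell from 1071 to 631 TPM (a difference of -0.76, limma adjusted p = 0.0436). Kng1 and Kng2 are kininogen genes, which supply bradykinin. Kng1 had 0.305 and 0.445 TPM in vehicle and 0.147 and 5.03 TPM in TGFbeta, and Kng2 had 0.907 and 0.578 TPM in vehicle and 0.0471 and 4.83 TPM in TGFbeta. Both stood high in TGFbeta 2 only and did not pass (limma adjusted p = 0.479 and 0.725). With TGFbeta 1 left out Kng1 was called at 2.14 (limma adjusted p = 0.0433), on TGFbeta 2 alone. They are close copies of each other, so their separate values are uncertain.

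Of 28 tested genes for G protein coupling and receptor desensitisation, 1 rose, 2 fell and 25 did not pass; the median change was -0.20. Rgs4, whose product speeds the shut-off of G protein signals, rose from 16.6 to 46.2 TPM (1.41, limma adjusted p = 0.0118). Arrb1, which encodes a beta-arrestin that uncouples receptors, fell from 37.8 to 14.4 TPM (-1.36, limma adjusted p = 0.0268). The protein kinase C gene Prkcd fell from 132 to 74.4 TPM (-0.81, limma adjusted p = 0.0258). Rgs5, also a pericyte marker, stood at 13.5 TPM in TGFbeta 2 and at 1.95 to 2.47 TPM in the other libraries. Its difference of 0.96 (limma adjusted p = 0.445) was called without TGFbeta 1 (2.11, limma adjusted p = 0.0429) and was -0.19 without TGFbeta 2.

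**Figure D4:**
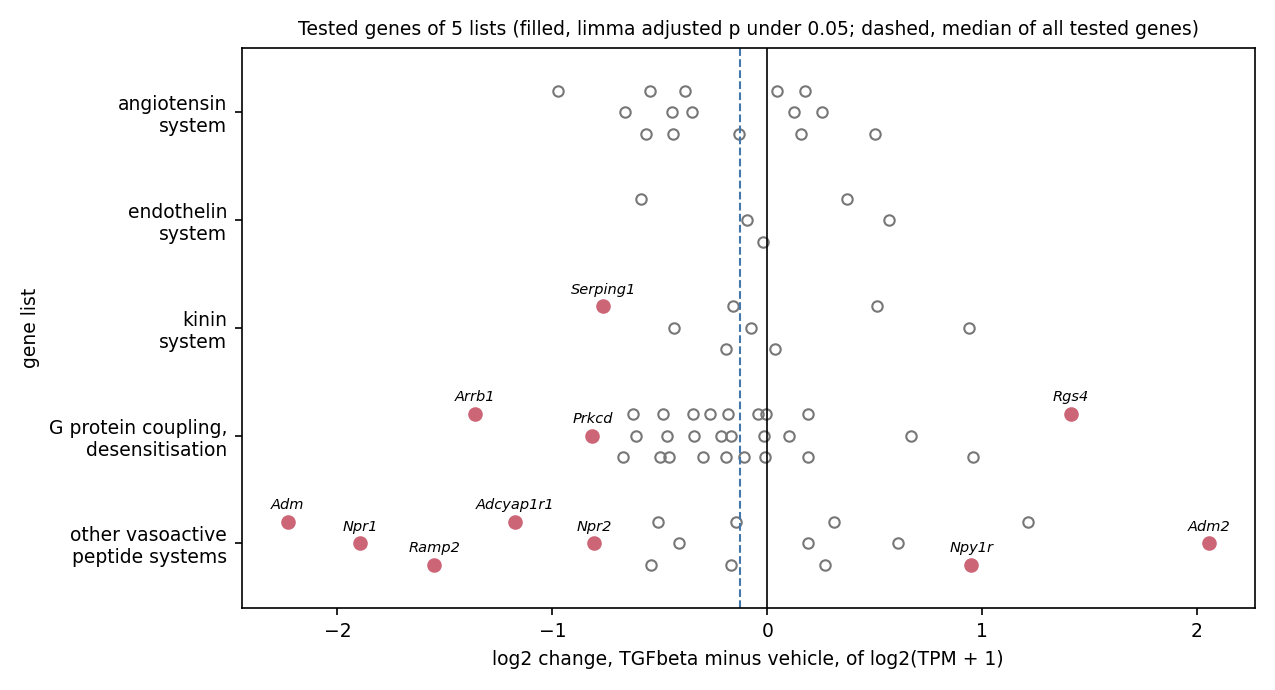
Difference of log2(TPM + 1), TGFbeta minus vehicle (horizontal axis), of every tested gene in 5 lists; filled, named points had a limma adjusted p under 0.05 and the dashed line is the median of all tested genes. None of the 15 angiotensin and 5 endothelin genes is filled. Filled points are 1 of 8 kinin, 3 of 28 coupling and 7 of 17 other vasoactive peptide genes. Of all tested genes, 5.92% were called, and differences between the lists were not tested.

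Among 35 listed genes of other vasoactive peptide systems, 17 were tested, 2 rose and 5 fell, with a median change of -0.17. Adm, which encodes the vessel-relaxing peptide adrenomedullin, fell from 949 to 199 TPM (-2.23, limma adjusted p = 0.00633), and Ramp2, which encodes a partner of its receptor, fell by 1.55 (limma adjusted p = 0.0200). Adm2, a related peptide gene, rose from 4.75 to 22.9 TPM (2.05, limma adjusted p = 0.00672). The natriuretic peptide receptor genes Npr1 and Npr2 fell by 1.90 and 0.80, Adcyap1r1 fell by 1.18, and Npy1r rose by 0.95. Whether these systems differ from the angiotensin, endothelin and bradykinin genes was not tested. No gene at all was called without vehicle 1, without vehicle 2 or when every gene above 0 was tested. All calls named for listed genes, from Serping1 to Npy1r, were therefore lost there (limma adjusted p from 0.0604 to 0.117 with every gene above 0). That loss is not particular to these calls. With either TGFbeta library left out, those of Adm, Adm2 and Rgs4 held, and that of Arrb1 held without TGFbeta 1; the others were lost. The calls of Serping1, Prkcd and Npr2 were also lost after median scaling and when limma was run without its intensity trend; quantile normalization ended that of Npr2 as well.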

How the data were processed

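RNA was sequenced in 4 libraries, 2 per treatment. Per the file headers, the authors deposited TPM, 1 value for each of 33641 gene symbols, summing to 1000000 in each library. No source used here names the aligner, quantifier, genome build, annotation or strand setting. TPM holds no read numbers, so the depth behind each value is unknown and counting error cannot be given. Gene positions and 3′ UTRs come from GENCODE M21 (GRCm38), where 32159 symbols matched directly, 292 through older symbols and 1190 not at all. In it, genes on the opposite strand overlap Ece1, Ednra, Ace and Edn1; without a stated strand setting, their reads cannot be told apart. Gm48161, annotated as sense intronic, lies in Agtr1a on the same strand, so strand would not separate any reads they share. None of these overlapping genes is among the deposited symbols.

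Genes with a mean of at least 1 TPM were tested on log2(TPM + 1) with limma 3.58.1 in R 4.3.3 (intensity trend, two-sided, Benjamini-Hochberg), with treatment as the only term. The pseudocount understates the change of low genes. The naming rule took all members, the called genes of each pathway list and its 3 genes with the largest absolute change, the study's own genes, and the genes nearest in pattern, 1 of which is not reported here; markers named are the called and leading ones, chosen after their values were seen. The members and lists were chosen with earlier results of these data known. No label tells whether the 2 replicates came from separate cultures or animals, so p-values reflect only the spread between the samples, which may be technical. The test was tried on simulated data. Alternatives were pseudocounts of 0.1 and 5, other gene filters, median and quantile scaling, other variance models, the replicate number as a block, and each library left out. Where that left 1 library in a group, it was assumed to vary like the pair in the other.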

Additional observations from a re-analysis of the deposited data

How the results depend on the processing

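Of the members, limma called 0 in the main analysis, 2 (Agtr1a and Ece1) with a mean of at least 5 TPM, where 4 were tested, 2 with protein-coding genes only, and 0 in the other 12 settings, in which 2 to 4 had an unadjusted p under 0.05. Median scaling turned Edn1 from -0.092 to 0.062, Ednra from -0.018 to 0.14 and Bdkrb1 from -0.076 to 0.078; with quantile normalization the values were 0.058, 0.13 and 0.077. With 1 library left out, Edn1 ran from -0.55 to 0.37, Ednra from -0.15 to 0.11, Bdkrb1 from -0.31 to 0.15 and Rgs5 from -0.19 to 2.11. Over all genes limma called 936, against 1681 with protein-coding genes only, 602 without an intensity trend, 0 with every gene above 0 (4348 at an unadjusted p under 0.05) and 0 to 344 with 1 library left out (2402 to 3318 at an unadjusted p under 0.05). Either vehicle library left out gave 0, TGFbeta 1 left out gave 176 and TGFbeta 2 left out gave 344. The cause of these differences was not tested. The calls were 244 higher and 692 lower, 421 and 401 after median scaling, and 333 and 401 after quantile normalization.

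The replicate number as a block left 0 members called (limma adjusted p = 0.110 for Agtr1a and 0.135 for Ece1; 4 at an unadjusted p under 0.05) and 631 genes in all, and it ended the calls of Serping1, Prkcd, Npr2 and Npy1r. Over 15815 genes, the difference between the vehicle libraries and that between the TGFbeta libraries had a Pearson r of -0.054. That value cannot tell whether samples of the same number share a source, which no label gives. How many reads stand behind the members under 2 TPM is unknown.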
